A study of Mus musculus with 42 samples.

Results

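Kit and the transcription factor genes Sohlh1, Sohlh2, Dmrt1 and Dmrtb1, 5 genes chosen by name of the 27179 in a table of RNA-seq read counts, were examined in spermatogonia with and without Chd8. Chd8 encodes a chromatin remodeler of the CHD family. The counts came from 12 libraries of Thy1+ and c-Kit+ cells, enriched with magnetic beads from testes of male mice at 10 days post-partum (dpp) on a C57BL/6J background, with 3 libraries in each of 4 groups. Control mice were Ddx4-Cre; Chd8+/F, with a wild-type and a floxed allele, and mutant mice were Ddx4-Cre; Chd8F/–, with a floxed and a deleted allele. All groups carried the Cre transgene, which the Ddx4 promoter drives in germ cells, so that other cells in a sample of a mutant testis were not its target. By these genotypes the other cells still differed, with a deleted allele in mutants where controls had a wild-type allele. Thy1 is a surface protein of undifferentiated spermatogonia, and also of other testis cells. c-Kit is the protein that Kit encodes, and the Thy1+ cells were taken from the fraction that the c-Kit beads had let through. The sort therefore fixed, in part, the difference in Kit between Thy1+ and c-Kit+ cells. Cells of both genotypes were sorted on this protein, so Kit was not free of the sort when genotypes were compared, nor were its ratios to other genes. The cells came from testes of 3 male pups for each analysis, and it is not stated that each library was 1 pup, so p-values measure the spread between these libraries.

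KIT is a receptor tyrosine kinase that spermatogonia put on their surface as they leave the undifferentiated state, and its ligand KITL is made by Sertoli cells and other somatic cells. SOHLH1 and SOHLH2 are basic helix-loop-helix proteins that bind E-box sequences, are needed for spermatogonial differentiation and act upstream of Kit. DMRT1, a DM-domain protein of both spermatogonia and Sertoli cells, holds spermatogonia back from meiosis, and DMRTB1 (also called DMRT6) acts in differentiating spermatogonia at the passage from mitosis to meiosis. Kit is also expressed in Leydig cells and mast cells, and Dmrt1 in Sertoli cells, so the level of these genes in a sorted sample need not come from germ cells alone.

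In the mm10 coordinates of the count table, Kit (gene ID 16590) occupied chr5:75574987-75656722 on the plus strand and Sohlh1 (227631) chr2:25842995-25847248 on the minus strand. Sohlh2 (74434) occupied chr3:55182044-55209957 on the plus strand, Dmrt1 (50796) chr19:25505706-25604328 on the plus strand and Dmrtb1 (56296) chr4:107676290-107684162 on the minus strand. The exons that were counted add up to 5182, 1289, 2348, 2251 and 1795 bases in that order. No other gene of the table shared exon bases with any of the 5 genes, on either strand.

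Because E-boxes are the sequences that SOHLH proteins bind, the 250 bases before the annotated start are shown for the 4 genes with a RefSeq promoter entry on GRCm38.p6, the assembly that mm10 stands for. They are printed 5′ to 3′ on the strand of the gene, and capitals mark each E-box (CANNTG, searched on both strands). Dmrt1 had no entry. For Dmrtb1 the window precedes the start of a RefSeq entry, which differs from the start in the count table. A second entry for Dmrtb1 (chr4:107683590-107683839) held 3 E-boxes, and a second one for Kit (chr5:75574741-75574990) overlapped the window shown and held none.
Sohlh1 promoter, chr2:25847249-25847498, minus strand: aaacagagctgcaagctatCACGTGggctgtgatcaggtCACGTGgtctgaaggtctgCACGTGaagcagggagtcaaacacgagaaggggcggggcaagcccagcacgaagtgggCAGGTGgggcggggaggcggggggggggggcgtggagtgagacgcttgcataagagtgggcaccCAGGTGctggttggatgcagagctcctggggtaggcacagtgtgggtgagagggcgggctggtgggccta
Sohlh2 promoter, chr3:55181794-55182043, plus strand: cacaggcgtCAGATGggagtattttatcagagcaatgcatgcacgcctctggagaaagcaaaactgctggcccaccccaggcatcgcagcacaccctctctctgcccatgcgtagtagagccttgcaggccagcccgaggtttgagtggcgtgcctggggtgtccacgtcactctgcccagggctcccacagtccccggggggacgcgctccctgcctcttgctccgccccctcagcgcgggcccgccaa
Kit promoter, chr5:75574737-75574986, plus strand: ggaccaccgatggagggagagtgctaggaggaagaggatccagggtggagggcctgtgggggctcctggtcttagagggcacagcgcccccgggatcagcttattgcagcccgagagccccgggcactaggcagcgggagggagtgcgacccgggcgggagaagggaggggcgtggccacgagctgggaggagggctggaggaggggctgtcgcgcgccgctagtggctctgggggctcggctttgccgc
Dmrtb1 promoter, chr4:107684231-107684480, minus strand: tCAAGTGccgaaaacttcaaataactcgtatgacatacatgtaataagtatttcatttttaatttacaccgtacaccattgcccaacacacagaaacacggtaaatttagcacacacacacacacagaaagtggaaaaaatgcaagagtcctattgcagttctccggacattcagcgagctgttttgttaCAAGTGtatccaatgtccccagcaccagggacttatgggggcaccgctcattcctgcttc
The Sohlh1 window held 5 E-boxes, of which 3 were the palindrome CACGTG, first bases 231, 211 and 192 before the start. A CACGTG stood in 6.02% of the 32817 RefSeq windows of the same length, and 3 or more in 20 of them (0.0609%). Of the windows shown, those of Sohlh2 and Dmrtb1 held 1 and 2 E-boxes and that of Kit none, against 66.2% of all windows with at least 1. The sequence ACATTGT, the core of the element that DMRT proteins bind, was in none of the 4 windows and in 2.56% of all windows on either strand. Such matches describe the letters and do not show binding.

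The total count per library ran from 32266861 to 45396233. The 5 genes were read deeply in every library, from 993 reads (Dmrtb1) to 32111 reads (Kit). Levels are given below as CPM, the count of a gene scaled to a common library total, after TMM scaling over the 12 libraries, which adjusts that total so that most genes do not differ. Chd8 itself was at 259 to 278 CPM in control and 258 to 298 CPM in mutant Thy1+ libraries, and at 263 to 305 and 297 to 316 CPM in control and mutant c-Kit+ libraries. A gene count sums the exons outside the loxP sites with those between them, so it does not check the deletion. The 9 germ cell markers in the table (Ddx4, Dazl and others, of 10 listed) summed to 2219 to 3429 CPM in control and 1636 to 2774 CPM in mutant Thy1+ libraries, and to 3867 to 4636 and 2849 to 3303 CPM in control and mutant c-Kit+ libraries. Markers of Sertoli cells summed to 610.0 to 2677 and 1188 to 3560 CPM in control and mutant Thy1+ libraries, and to 731 to 1883 and 2976 to 3263 CPM in control and mutant c-Kit+ libraries. In the c-Kit+ libraries the genotypes did not overlap in either sum. Replicate 1 of control Thy1+ cells stood apart from the other controls, with the highest Sertoli sum and the lowest germ cell sum of its group, and replicate 1 of mutant Thy1+ cells did so in its own group. Stromal markers (collagens, Dcn, Pdgfra) reached 11121 to 19187 CPM in Thy1+ and 1816 to 4379 CPM in c-Kit+ libraries. Fewer cells of a type and less RNA per cell cannot be told apart in such samples.

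Dmrt1 was the most abundant of the 5 genes per kilobase of exon in each of the 4 groups, and Dmrtb1 the least. In control c-Kit+ cells Dmrt1 stood at 201 ± 12.7 CPM per kilobase (SD, n = 3), Kit at 129 ± 8.81, Sohlh1 at 87.4 ± 10.2, Sohlh2 at 62.7 ± 4.62 and Dmrtb1 at 52.2 ± 5.96. Each step in this order was wider than the larger SD of its neighbours, and the order was the same in mutant c-Kit+ cells. In control Thy1+ cells Dmrt1 stood at 142 ± 20.5 CPM per kilobase, and the other 4 genes, from Sohlh1 at 64.1 ± 12.4 to Dmrtb1 at 25.5 ± 9.37, did not differ from their neighbours by more than the SD.

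**Figure D1:**
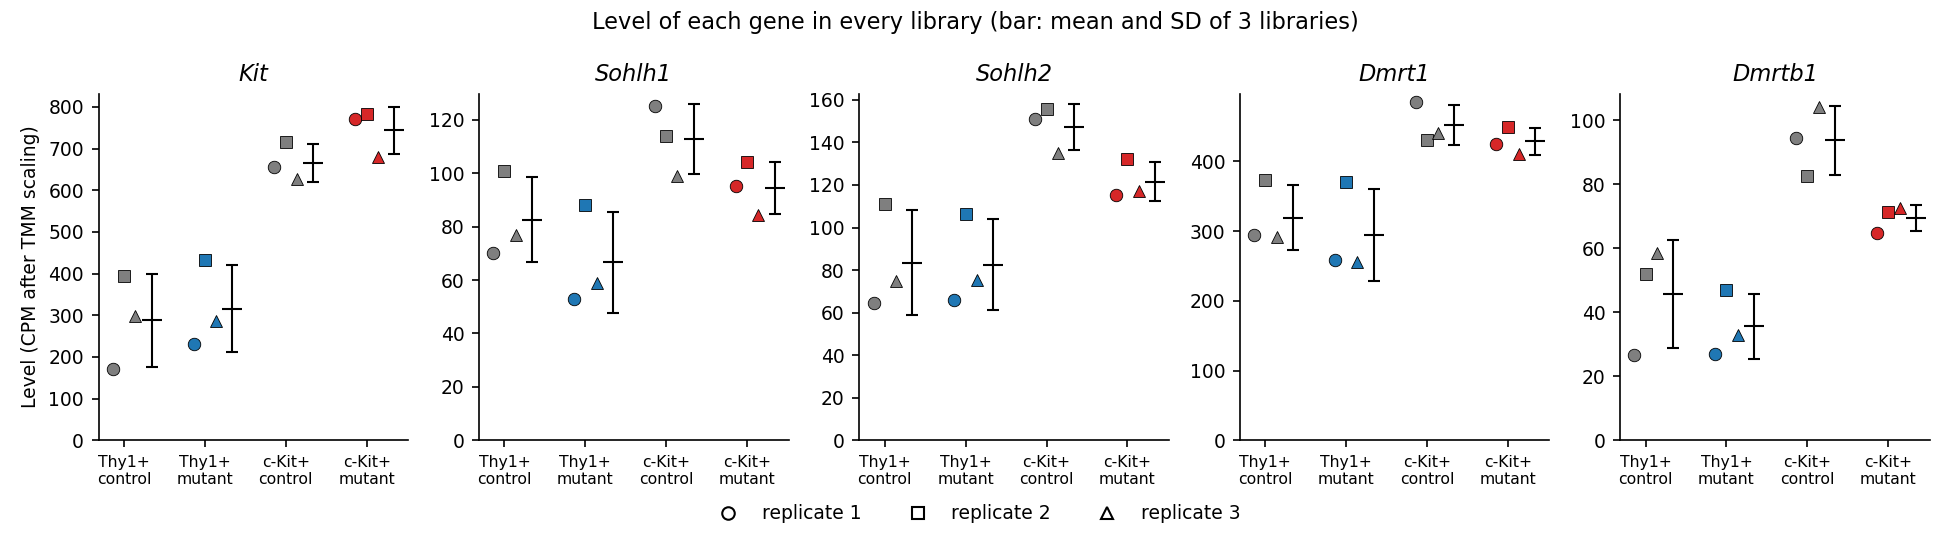
Level of each gene in CPM (y axis, linear from 0, own scale in each panel) in the 12 libraries, by group on the x axis. Symbols give the replicate number and bars the mean and SD of 3 libraries. All 5 genes sit higher in c-Kit+ than in Thy1+ cells on average, and in c-Kit+ cells the mutant libraries of Sohlh2 and Dmrtb1 lie below all control libraries.

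The first question was whether loss of Chd8 changed these genes in c-Kit+ cells, the population that has begun to differentiate. Kit, the receptor, was at 656, 716 and 626 CPM in control replicates 1, 2 and 3 and at 772, 782 and 680 CPM in the mutant replicates. The mutant libraries lay mostly above the controls, with an overlap at mutant replicate 3, and the log2 fold change was 0.10 ± 0.07 (SE, FDR = 0.29 by edgeR's quasi-likelihood test). Sohlh2, the partner of SOHLH1, was at 151, 156 and 135 CPM in the controls and at 115, 132 and 117 CPM in the mutants, without overlap. Its log2 fold change was −0.33 ± 0.08 (FDR = 0.0072). Sohlh1 was at 125, 114 and 98.9 CPM in the controls and at 95, 104 and 84.5 CPM in the mutants. The highest mutant exceeded the lowest control, while each mutant lay below the control of the same replicate number, and the log2 fold change was −0.31 ± 0.10 (FDR = 0.031).

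Of the DMRT genes, Dmrtb1 showed the larger difference. It was at 94.3, 82.7 and 104 CPM in control and at 64.8, 71.2 and 72.5 CPM in mutant c-Kit+ libraries, without overlap, with a log2 fold change of −0.49 ± 0.09 (FDR = 0.0023). Dmrt1 was at 485, 431 and 440 CPM in the controls and at 425, 450 and 411 CPM in the mutants. These libraries overlapped, and the log2 fold change was −0.13 ± 0.06 (FDR = 0.12). A gene was called where its FDR was under 0.05 and its absolute log2 fold change over 0.5. By this rule 0 of 5 genes were called, beside 22.2% of the 17134 genes tested. At an FDR under 0.05 with no minimum on the fold change, 3 of 5 were lower, beside 18.3% of all genes lower and 39.2% in either direction. The libraries of 2 of 5 genes did not overlap and were lower in mutants, beside 20.6% of all genes.

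How far these 3 lower values stood out depended on the fit and the scaling. With the replicate number as a block the FDR was 0.0053 for Sohlh1, 0.0018 for Sohlh2 and 0.0011 for Dmrtb1, and with the edgeR exact test it was 0.015, 0.0023 and 2.8e-05, with folds nearly the same and none of the 3 called. With all 12 libraries in a single fit, which takes in the wider spread of the Thy1+ libraries, the FDR was 0.33 for Sohlh1, 0.32 for Sohlh2 and 0.22 for Dmrtb1. Dmrtb1 lay just short of the minimum fold change, and was called when control replicate 2, mutant replicate 2 or mutant replicate 3 was left out (−0.58, −0.51 and −0.52, 1 of 5 genes called each time). In that order, calls over all genes were 3175 of 17489, 3695 of 17443 and 3290 of 17449. For Sohlh1 the FDR ran from 0.016 to 0.12 over the 6 libraries left out in turn, and was over 0.05 without control replicate 1 (0.087), control replicate 2 (0.052), mutant replicate 1 (0.081) or mutant replicate 3 (0.12). The germ cell markers moved with these genes. Their median log2 fold change in c-Kit+ cells was −0.29, 6 of 9 were lower at an FDR under 0.05, and Tex15 fell (−1.47 ± 0.13, FDR = 0.00013). Markers of several other cell types rose in the same libraries, with 11 of 12 Sertoli, 7 of 7 stromal, 6 of 7 endothelial, 5 of 8 Leydig and 6 of 7 tested mast cell markers called higher, beside 14.8% of all genes. Of peritubular myoid cell markers 3 of 6 were called higher, while Tagln (−0.28) and Cnn1 (−0.09) were not, and of macrophage markers 1 of 8, with sums of 19.3 to 53.3 CPM in controls and 47.1 to 70.7 CPM in mutants that overlapped. The 1 erythroid marker tested was not called (0.10). With the summed germ cell markers in place of the total, the median gene shifted by 0.47 on the log2 scale, and calls in all genes went from 2542 higher and 1270 lower to 7042 higher and 350 lower. On that scale Kit was higher in mutants (0.57, FDR = 0.00012) and called, as 1 of 5 beside 43.1% of all genes, Dmrt1 was at 0.33 (FDR = 0.023), Sohlh1 at 0.15, Sohlh2 at 0.14 and Dmrtb1 at −0.03. With Tex15 taken out of the list, a choice made after its value was seen, the median gene shifted by 0.30, and the values were 0.40 for Kit (FDR = 0.0012), 0.16 for Dmrt1, −0.02 for Sohlh1, −0.04 for Sohlh2 and −0.20 for Dmrtb1. On both germ cell scales the 95% confidence intervals of Sohlh1, Sohlh2 and Dmrtb1 included 0 and that of Kit did not.

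**Figure D2:**
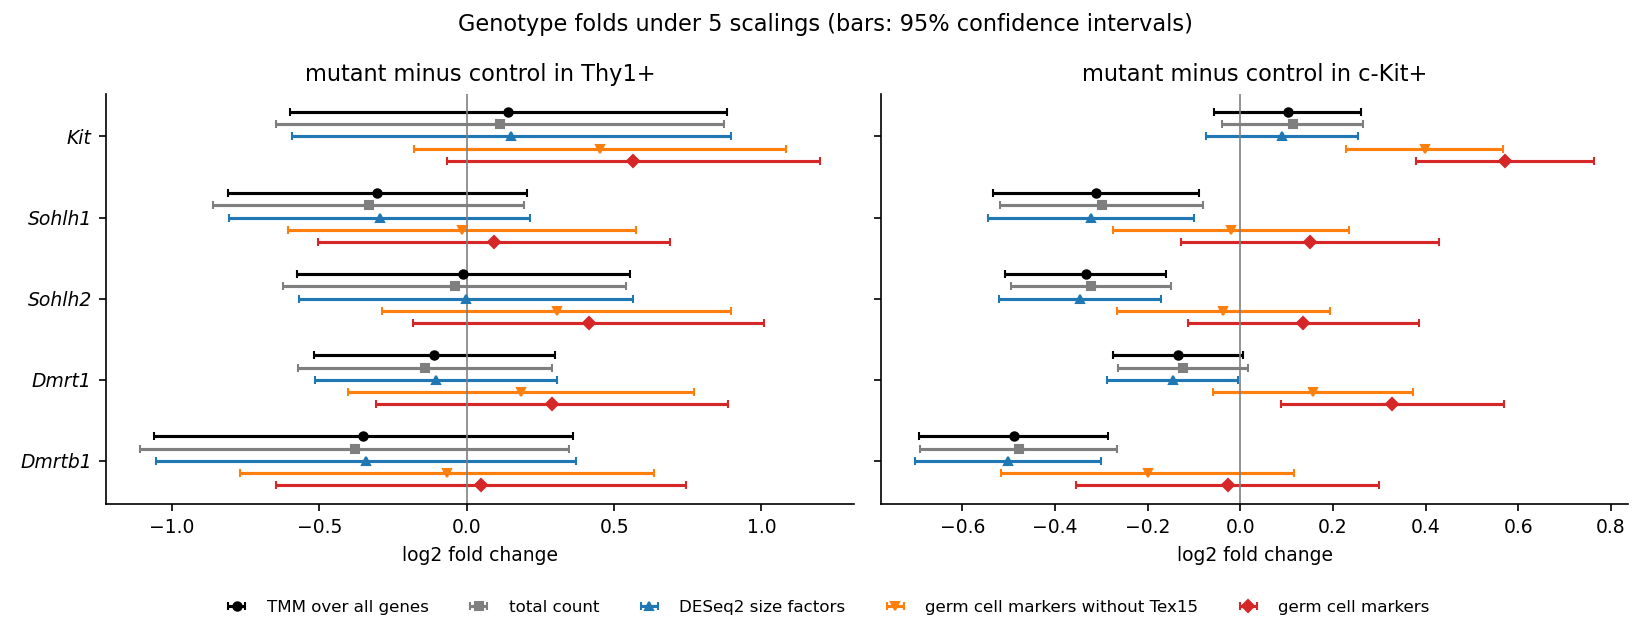
Log2 fold change of mutant over control (x axis, bars are 95% confidence intervals) for each gene under 5 ways of scaling the libraries, in Thy1+ cells on the left and c-Kit+ cells on the right. In c-Kit+ cells TMM, total count and DESeq2 size factors gave nearly the same values, and both germ cell scalings moved all 5 genes to the right, with only the interval of Kit clear of 0 under both.

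Markers of Leydig and mast cells, which also express Kit, were higher in mutant c-Kit+ libraries. The 8 Leydig cell markers summed to 715 to 1351 CPM in control and 1356 to 2250 CPM in mutant c-Kit+ libraries, and the 9 mast cell markers to 37.5 to 51.8 and 71.7 to 103 CPM, with Fcer1a and Ms4a2, which define mast cells, at or near 0. Hdc was the largest term of the mast cell sum in each c-Kit+ library, at 12.7 to 25.6 CPM in controls and 25.9 to 39.1 CPM in mutants. Within each genotype replicate 3 had the highest Leydig sum and the lowest Kit. In mutants it also had the highest mast cell sum and the lowest germ cell sum. The part of Leydig and mast cells in the level of Kit was not tested. For Dmrt1 the Sertoli sums above stand beside its value. The part of Sertoli cells in the level of Dmrt1 was not tested.

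A ratio of 2 genes within a library does not depend on the scaling. Reads of Kit were therefore divided by reads of each other gene, a comparison chosen after the values were seen. In c-Kit+ cells there were 4.35, 4.60 and 4.64 reads of Kit for each read of Sohlh2 in the controls and 6.69, 5.91 and 5.80 in the mutants. The ratio of Kit to Sohlh1 was 5.24, 6.28 and 6.33 in the controls and 8.12, 7.51 and 8.04 in the mutants. The ratio of Kit to Dmrtb1 was 6.96, 8.66 and 6.02 in the controls and 11.9, 11 and 9.37 in the mutants. The mutant libraries lay above all controls in these 3 ratios, by 0.44 ± 0.07, 0.41 ± 0.10 and 0.59 ± 0.18 on the log2 scale (SE). In Thy1+ cells the same held for Kit to Sohlh1 (0.50 ± 0.23) and Kit to Dmrtb1 (0.49 ± 0.17), but the ratio of Kit to Sohlh2 overlapped, with 2.66, 3.54 and 3.97 in the controls and 3.50, 4.06 and 3.8 in the mutants. The ratio of Kit to Dmrt1 overlapped in both populations. Of the 8 comparisons, the 5 without overlap had an exact two-sided permutation p of 0.10, the smallest that 3 against 3 libraries allow, and 0.16 after Benjamini-Hochberg adjustment. The same ratio of Kit to every other gene tested was higher in mutants without overlap for 27.6% of 17133 genes in c-Kit+ cells and 7.6% of 17415 in Thy1+ cells, beside 3 of 4 and 2 of 4 here.

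**Figure D3:**
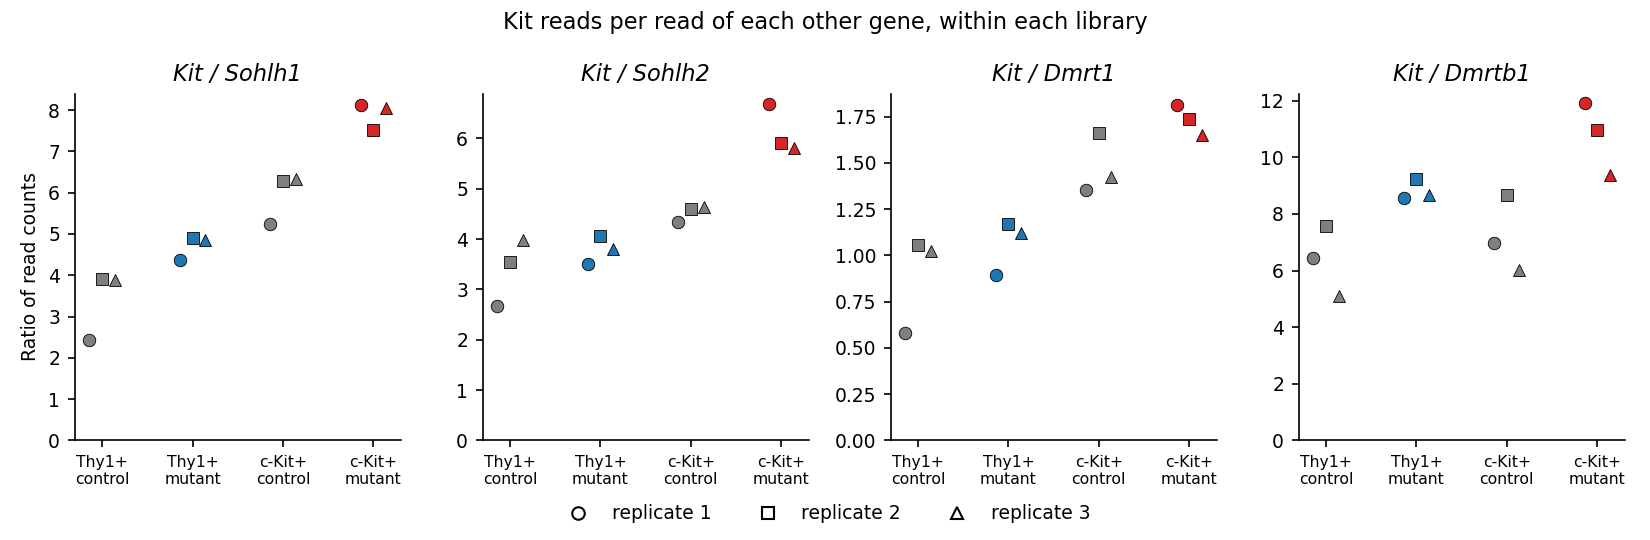
Reads of Kit per read of Sohlh1, Sohlh2, Dmrt1 and Dmrtb1 in each library (y axis, linear from 0), by group on the x axis, with symbols for the replicate number. In c-Kit+ cells the mutant ratios to Sohlh1, Sohlh2 and Dmrtb1 sit above all control ratios.

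The second question was the same comparison in Thy1+ cells, the fraction enriched for undifferentiated spermatogonia by its surface protein. None of the 5 genes was called (0 of 5, beside 0% of the 17416 genes tested, of which 12.4% had an unadjusted p under 0.05). Kit was at 171, 393 and 298 CPM in control and at 231, 432 and 286 CPM in mutant libraries, with a log2 fold change of 0.14 ± 0.32 (FDR = 0.86). Sohlh2 was at 64.3, 111 and 75.1 CPM in control and at 66.0, 106 and 75.2 CPM in mutant libraries, nearly the same value in each pair of replicate numbers, and its log2 fold change was −0.01 ± 0.25 (FDR = 0.99). Both genes spread far more among replicates than between genotypes.

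Sohlh1 was at 70.2, 101 and 77 CPM in control and at 52.9, 88.1 and 58.9 CPM in mutant Thy1+ libraries, lower in the mutant of each replicate number, though the groups overlapped. Its log2 fold change was −0.30 ± 0.22 (FDR = 0.57). Dmrt1 was at 294, 373 and 291 CPM in control and 258, 370 and 255 CPM in mutant libraries (−0.11 ± 0.18, FDR = 0.80). Dmrtb1 was at 26.6, 52.0 and 58.5 CPM in control and 27.0, 46.9 and 33.0 CPM in mutant libraries (−0.35 ± 0.31, FDR = 0.63), and its difference came mainly from replicate 3. Replicate 2 was the highest of its group for 4 of the 5 genes in the controls and for all 5 in the mutants. Without control replicate 1, which stood apart, Kit was at −0.13 (FDR = 0.82), without mutant replicate 2 it was at −0.17 (FDR = 0.76), and none of the 5 genes was called with any library left out.

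Libraries with the same replicate number deviated together, and the fit was repeated with that number as a block. The block raised the count of genes called in Thy1+ cells from 0 to 1414 (8.12%), still with 0 of the 5 genes. Sohlh1 was then lower by less than the minimum, at −0.32 ± 0.06 (FDR = 0.0014), the 1 gene of the 5 with an FDR under 0.05, beside 29.2% of all genes and 13.6% lower. Kit was at 0.17 ± 0.07 (FDR = 0.076), Dmrt1 at −0.12 ± 0.05 (FDR = 0.087), Dmrtb1 at −0.31 ± 0.12 (FDR = 0.053) and Sohlh2 at −0.0023 ± 0.06 (FDR = 0.98). The blocked 95% confidence interval of Sohlh2 ran from −0.13 to 0.12 in Thy1+ cells and from −0.47 to −0.20 in c-Kit+ cells. These are separate fits, and the direct test of a difference is the interaction below, which was not called with or without the block. Without the block, where no gene of the table was called, the 9 germ cell markers had a median of −0.31 (0 of 9 called). With them as the scale, also without the block, Kit was at 0.56, Sohlh1 at 0.09, Sohlh2 at 0.41, Dmrt1 at 0.29 and Dmrtb1 at 0.05, none of them called.

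**Figure D4:**
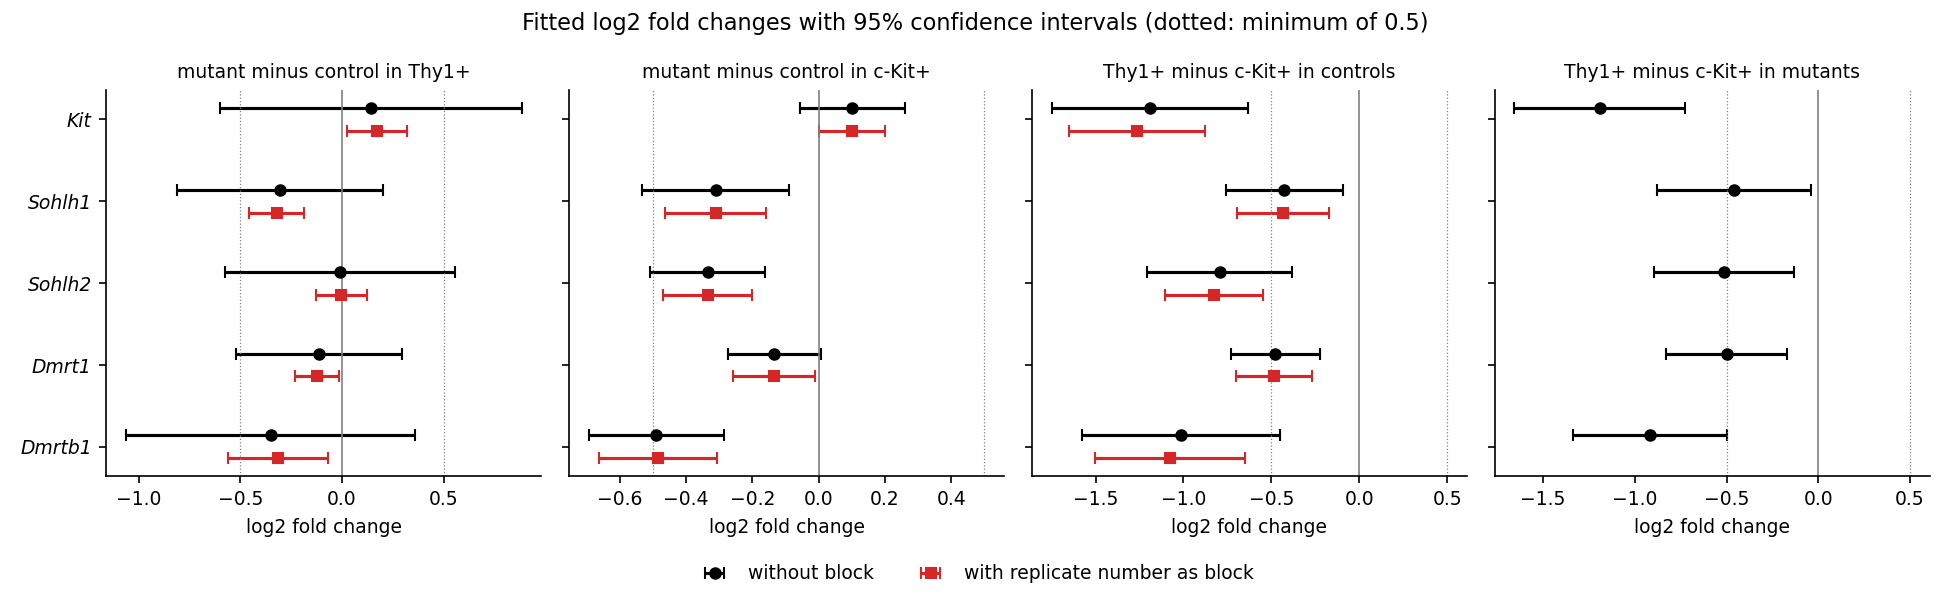
Log2 fold changes (x axis) of the 5 genes with 95% confidence intervals in the 4 comparisons, without a block (black) and with the replicate number as a block (red, in every panel but the one for mutants). Dotted lines mark the minimum of 0.5 on either side. The block narrows the intervals most in Thy1+ cells, where those of Kit, Sohlh1, Dmrt1 and Dmrtb1 leave 0 and that of Sohlh2 stays on it. Of these, only Sohlh1 had an FDR under 0.05.

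Whether the genotype effect differed between populations was tested as an interaction over all 12 libraries. It was called for 0 of the 5 genes, beside 0% of 18002 genes tested (10% with an unadjusted p under 0.05, 56 genes called by DESeq2). Sohlh2 had the largest difference of the 5, with an effect in c-Kit+ cells lower by 0.26 ± 0.28 on the log2 scale than in Thy1+ cells (95% confidence interval −0.86 to 0.34, FDR = 0.80). For Kit, Sohlh1, Dmrt1 and Dmrtb1 the difference was 0.02 ± 0.36, 0.06 ± 0.26, 0.04 ± 0.19 and −0.07 ± 0.35. The median over all genes tested was 0.083, so these values do not sit on a scale centred at 0.

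The third question was how the 5 genes differed between populations. In controls Kit, Sohlh2 and Dmrtb1 were lower in Thy1+ than in c-Kit+ cells, and called, at 3 of 5 genes beside 7.08% of 17350 genes called lower and 27.8% called in either direction. The log2 difference, Thy1+ minus c-Kit+, was −1.19 ± 0.25 for Kit (FDR = 0.0070), which the sort had selected, −0.79 ± 0.18 for Sohlh2 (FDR = 0.010) and −1.02 ± 0.25 for Dmrtb1 (FDR = 0.014). Dmrt1 (−0.48 ± 0.11, FDR = 0.012) and Sohlh1 (−0.43 ± 0.15, FDR = 0.048) were lower by less than the minimum, so that 5 of 5 were lower at an FDR under 0.05, beside 13.6% of all genes. Only Sohlh1 overlapped between the populations, since Thy1+ replicate 2 reached 101 CPM and c-Kit+ replicate 3 stood at 98.9 CPM, and the other 4 of 5 did not, beside 24.8% of all genes not overlapping and lower. Without Thy1+ replicate 2 all 5 genes were called, beside 5647 of all 17673 genes (2002 lower). Without c-Kit+ replicate 3 Dmrtb1 was not called, beside 3851 of all 17746 genes called (877 lower).

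In mutants 2 of 5 genes were called, both lower, beside 5.03% of 17346 genes called lower and 20.3% called in either direction. Kit stood at −1.19 ± 0.21 (FDR = 0.0035) and Dmrtb1 at −0.92 ± 0.18 (FDR = 0.0076). Sohlh2 was at −0.51 ± 0.17 and just missed the threshold (FDR = 0.051), Dmrt1 was at −0.50 ± 0.15 (FDR = 0.035) and Sohlh1 at −0.46 ± 0.18 (FDR = 0.093). Without mutant Thy1+ replicate 2 all 5 genes were called, beside 5017 of all 17604 genes tested in that fit (1788 lower). How far the population difference of Sohlh2 itself differed between genotypes is the interaction given above, which was not called.

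The population differences also moved with the germ cell markers, of which 4 of 9 were called lower in control Thy1+ cells, and with stromal markers, of which 7 of 7 were called higher. For Kit, 5 of 8 Leydig and 4 of 7 tested mast cell markers were also called lower in control Thy1+ cells. The part of these cells in the results was not tested. With the germ cell markers as the scale, Kit was the only gene of the 5 called in controls (−0.64, FDR = 0.019, beside 45.5% of all genes called), while Sohlh2 was at −0.23, Dmrtb1 at −0.44, Sohlh1 at 0.16 and Dmrt1 at 0.11. On that scale the median gene shifted by 0.62, and calls went from 3594 higher and 1229 lower to 7843 higher and 58 lower. With the total count alone they were 3252 and 1851.

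Relatives of these regulators were examined as well. Of 13 other SOHLH-linked and DMRT genes in the table, 11 were tested in c-Kit+ cells, of which 2 were called lower and 1 higher (median −0.26, beside 7.41% of all genes lower and 14.8% higher). The share called in either direction was near that of all genes (22.2%). Dmrtc2, a DM-domain gene of male germ cells (also called Dmrt7), was at 14.1, 29.9 and 23.1 CPM in control and 4.25, 5.84 and 6.80 CPM in mutant c-Kit+ libraries. It fell by 2.05 ± 0.26 on the log2 scale (FDR = 0.00041). Figla, a basic helix-loop-helix gene best known from oocytes, was at 5.68, 7.07 and 9.18 CPM in control and 3.01, 4.21 and 5.12 CPM in mutant libraries (−0.89 ± 0.24, FDR = 0.014), with no overlap. Dmrta1 rose, from 28.6, 13.2 and 21.2 CPM to 41.6, 45.6 and 42.6 CPM (0.99 ± 0.21, FDR = 0.0050). Its 2 highest Thy1+ values, 48.7 CPM in the controls and 50.4 CPM in the mutants, were in the libraries with the highest Sertoli sums. The part of Sertoli cells in the level of Dmrta1 was not tested. In Thy1+ cells none of 11 was called, and the lowest p-values were those of Dmrtc2 (−1.38 ± 0.47, FDR = 0.34), Dmrt2 (−1.03 ± 0.35, FDR = 0.34) and Figla (−0.71 ± 0.38, FDR = 0.46). With the replicate block these 3 were called lower, beside 4.92% of all genes.

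Kitl, which encodes the ligand of KIT, was at 78.5, 44.9 and 71.2 CPM in control and 163, 163 and 173 CPM in mutant c-Kit+ libraries, with no overlap, and rose by 1.30 ± 0.16 on the log2 scale (FDR = 0.00037). In Thy1+ libraries it was at 185, 88.1 and 117 CPM in controls and 249, 133 and 180.0 CPM in mutants (0.53 ± 0.29, FDR = 0.47). With the block the value was 0.55 ± 0.05 (FDR = 4.7e-06) and called. Markers of Sertoli cells, which are among the cells that make KITL, stood higher in the mutant c-Kit+ libraries. So did 7 of 7 stromal, 6 of 7 endothelial and 5 of 8 Leydig cell markers, each called higher. The part of any of these cells in the rise of Kitl was not tested.

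Downstream of the receptor, 32 genes of the ligand, adaptors, PI3K-AKT, RAS-MAPK and SRC kinases were tested in c-Kit+ cells, and 4 were called higher and 1 lower (median −0.07), beside 14.8% of all genes higher and 7.41% lower. The share of the list called was thus no higher than that of all genes (22.2%). Beside Kitl, the called genes included Lyn, an SRC family kinase (0.82 ± 0.29, FDR = 0.044), Sos2, a guanine nucleotide exchange factor for RAS (0.73 ± 0.09, FDR = 0.00034), and Pdpk1, the kinase that activates AKT (−0.67 ± 0.12, FDR = 0.0016). Fyn, another SRC family kinase, rose as well (0.56 ± 0.08, FDR = 0.00071), and is named after its value was seen. In Thy1+ cells none of the 32 was called, and the lowest p-values were those of Pik3cd (−0.39 ± 0.12, FDR = 0.31), Akt1 (0.28 ± 0.10, FDR = 0.34) and Mtor (−0.41 ± 0.17, FDR = 0.39). Another list held 9 genes set down as possible restraints on KIT, such as phosphatases, CBL ubiquitin ligases and SOCS proteins, a role not tested here. None of the 9 was called in either population, beside 22.2% of all genes in c-Kit+ and 0% in Thy1+ cells. Their lowest p-values in c-Kit+ cells were those of Ptpn11 (0.21 ± 0.07, FDR = 0.032), Cblb (0.16 ± 0.07, FDR = 0.12) and Adam17 (0.14 ± 0.07, FDR = 0.14), and in Thy1+ cells those of Socs6 (0.26 ± 0.11, FDR = 0.40), Cblb (−0.20 ± 0.11, FDR = 0.47) and Socs1 (0.21 ± 0.13, FDR = 0.51).

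Most genes listed for differentiating spermatogonia were lower in mutant c-Kit+ cells. Of 10 such genes, 6 were called lower and 0 higher in c-Kit+ cells (median −0.61), beside 7.41% of all genes lower and 14.8% higher. Like all lists here, this one was chosen with earlier results of these data known, so its share is a description. Prss50, a testis serine protease, was at 84.7, 152 and 156 CPM in controls and 5.02, 5.23 and 7.85 CPM in mutants, and fell by 4.5 ± 0.26 on the log2 scale (FDR = 2.9e-05). Rhox13 (−1.64 ± 0.10, FDR = 3.1e-05), Sycp3, of the axis of meiotic chromosomes (−1.36 ± 0.14, FDR = 0.00019), and Tex14, of the bridges between germ cells (−0.75 ± 0.09, FDR = 0.00034), fell too. Stra8, the retinoic acid target that starts meiosis, was at 522, 622 and 526 CPM in controls and 355, 401 and 339 CPM in mutants (−0.67 ± 0.09, FDR = 0.00041). The other gene called was Rarg, a retinoic acid receptor (−0.55 ± 0.10, FDR = 0.0025), named after its value was seen. Of the 4 genes of the list that were not called, the DNA methyltransferase gene Dnmt3b was at −0.29 ± 0.06 (FDR = 0.0056) and Dnmt3a at 0.09 ± 0.07 (FDR = 0.32). Ccnd2, a cyclin gene, was at 0.25 ± 0.07 (FDR = 0.014) and Nfya at 0.32 ± 0.08 (FDR = 0.011), both higher in mutants. In Thy1+ cells none was called without the block, with the lowest p-values for Prss50 (−3.64 ± 0.46, FDR = 0.14), Rhox13 (−1.13 ± 0.27, FDR = 0.24) and Sycp3 (−0.91 ± 0.30, FDR = 0.34). With the block 5 of 10 were called lower, beside 4.92% of all genes, Stra8 among them (−0.50 ± 0.08, FDR = 0.00033).

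Genes of undifferentiated spermatogonia went both ways in c-Kit+ cells, with 2 of 19 tested called higher and 3 lower (median −0.09), beside 14.8% and 7.41% of all genes, so that the share called was near that of all genes (22.2%). Etv5, a GDNF-responsive factor, rose by 1.08 ± 0.14 (FDR = 0.00041) and Neurog3 by 0.67 ± 0.24 (FDR = 0.046), while Lin28a, an RNA-binding protein (−1.0 ± 0.07, FDR = 7.6e-05), and Pou5f1 (−0.93 ± 0.28, FDR = 0.022) fell. Taf4b, named after its value was seen, fell by 0.62 ± 0.09 (FDR = 0.00078). In Thy1+ cells 19 of 20 values were below 0 and none was called, with the lowest p-values for Lin28a (−1.17 ± 0.20, FDR = 0.16), the GDNF receptor Ret (−0.97 ± 0.19, FDR = 0.18) and its co-receptor Gfra1 (−0.88 ± 0.19, FDR = 0.20). With the block 13 of 20 were called lower, beside 4.92% of all genes.

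**Figure D5:**
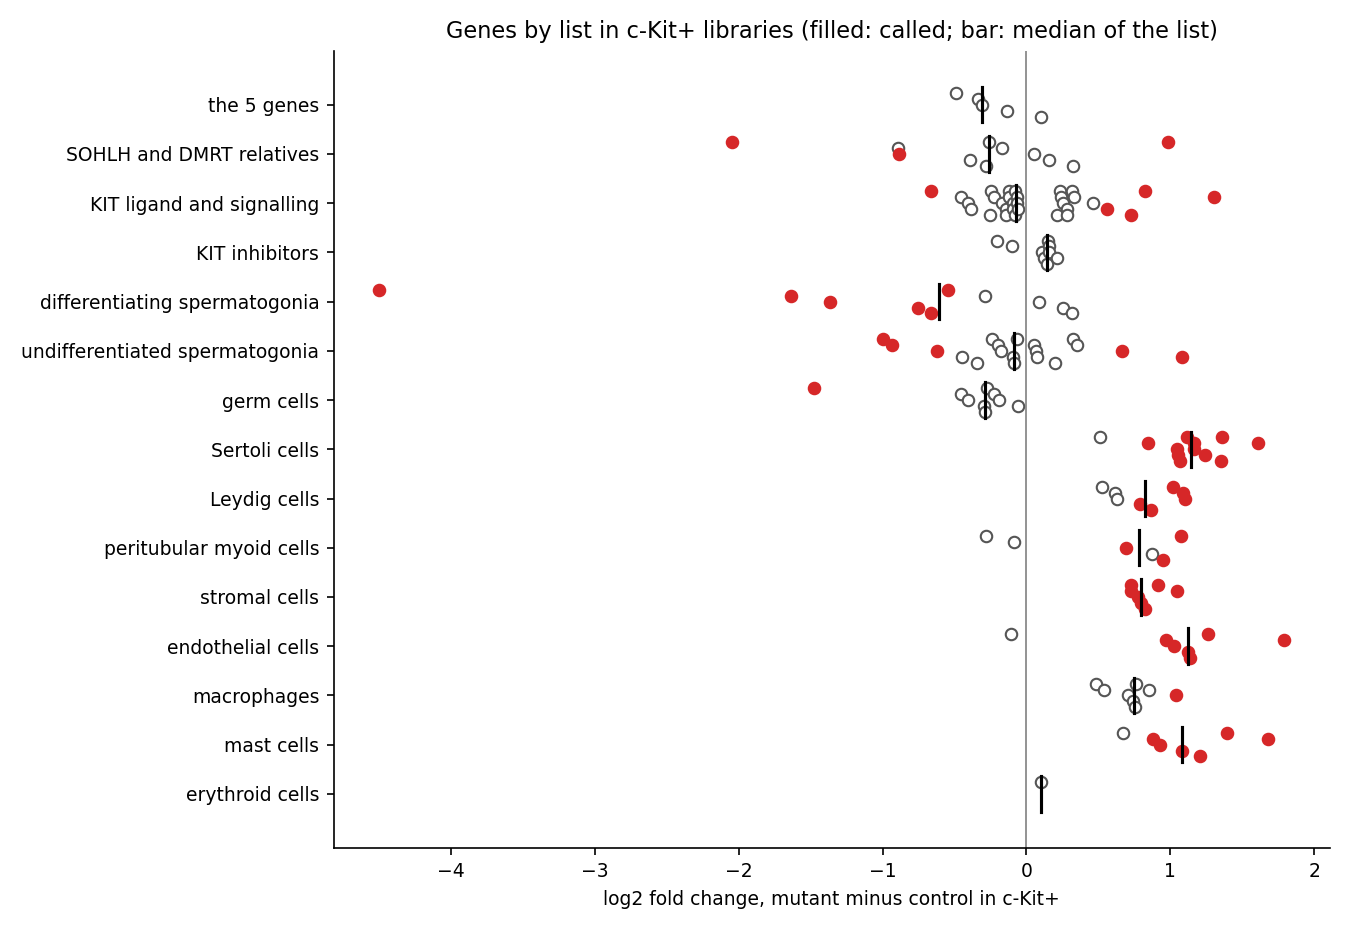
Log2 fold change of mutant over control in c-Kit+ cells (x axis) for each tested gene of the lists on the y axis, with filled points for called genes and a bar at the median of each list. The 5 regulators lie between −0.49 and 0.10 with none filled, differentiating genes reach −4.5, and the lists of somatic cells lie mostly to the right of 0.

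Across the 12 libraries the 5 genes moved together, with Pearson correlations of log2 CPM from 0.79 (Kit and Sohlh1) to 0.95 (Sohlh2 and Dmrt1). These points share the sorted population and the germ cell content, so the values are a description. Among 11165 genes ranked by likeness to each of the 5, the highest place that another of them took was 269, that of Sohlh2 from Dmrt1. The genes most like Kit were N4bp2, Arfgef3 and Fam136a, and those most like Sohlh1 were Eif3d, Pprc1 and Mcm3ap. Sohlh2 was closest to Dnmt3b, Txnrd3 and Wdr12, Dmrt1 to Bop1, Pld6 and Gsr, and Dmrtb1 to Ap5b1, Trnp1 and Fibcd1, with correlations of 0.98 to 0.99.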

How the data were processed

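RNA was measured in 12 libraries, 3 from each of 4 groups taken from the sample labels, out of 42 samples. The 30 ChIP libraries were not used here. The authors trimmed paired reads with Trimmomatic 0.39, aligned them to mm10 with HISAT2 2.1.0 and counted them per gene with featureCounts, version 2.0.3 per the file headers. The deposited values were raw read counts per gene. Both reads of a pair were counted and no strand option was given, so counts exceed the number of fragments and reads of either strand were added up. Of the 27179 genes, 1904 had no symbol and took 0.511 to 0.776% of the counts. Total counts of 32266861 to 45396233 left the spread between libraries, not depth, as the limit for the 5 genes.

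Counts were fitted with edgeR 4.0.16 in R 4.3.3, by TMM scaling, filterByExpr (minimum count 10, minimum total 15) and the quasi-likelihood F test, with Benjamini-Hochberg adjustment over all genes tested in each comparison (FDR). Calls needed FDR below 0.05 together with a log2 fold change beyond 0.5 in either direction, and in the interaction FDR alone. Folds came from fits of the 2 groups compared, whereas levels were CPM scaled over the 12 libraries. SE was the fold divided by the square root of F. On simulated counts with 200 genes changed by 1.5 on the log2 scale, 150 of 200 were recovered for the Thy1+ genotypes, 171 for the c-Kit+ genotypes, 156 between populations in controls and 162 in mutants. Unchanged genes called were 6, 15, 8 and 9 in that order. The simulated libraries were drawn independently, without deviations shared by a replicate number, so the share recovered need not hold for the real libraries.

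The 5 genes and all lists were chosen with earlier results of these data known. Named list genes were up to 4 called with the largest fold per list and genotype comparison, or up to 3 with the lowest p where none was called, with Kitl, Stra8 and Chd8 always given. The genes most alike were the 3 with the highest Pearson correlation. Alternatives were the edgeR exact test, DESeq2 1.42.0, other scalings and filters, calls by FDR without a fold limit, all 12 libraries in a joint fit, each library left out and the replicate number as a block. The sources do not say what a shared replicate number marks. Deviations from the group means of same-numbered libraries correlated over 0.1 in all 3 pairs between the Thy1+ genotypes (0.27 to 0.49), the c-Kit+ genotypes (0.10 to 0.13) and the control populations (0.13 to 0.30), which were taken as paired. With a prior count of 1 in place of 2, 1 of 3 pairs of the c-Kit+ genotypes passed. Promoter windows came from RefSeq on GRCm38.p6.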

Additional observations from a re-analysis of the deposited data

How the results depend on the processing

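Counts of the 5 genes called in c-Kit+ genotypes were 1 with DESeq2, with DESeq2 size factors and with germ cell markers as the library size, and 3 with no minimum on the fold change. In that order, calls over all genes were 3837, 3814, 7392 and 6710 of 17134. In controls 5 were called between populations by total count alone or with no minimum, and 1 with germ cell markers, with or without Tex15. Beside the 5 stood 5103 (1851 lower) and 6519 (2357 lower) of 17350 genes. Beside the 1 stood 7901 (58 lower) and 7183 (77 lower) of 17350. In mutants 4 were called by total count alone or with all 12 libraries fitted, and 1 with either germ cell scaling. Beside the 4 stood 3783 of 17346 genes (1390 lower) and 3678 of 18002 (1169 lower). Beside the 1 stood 5495 and, without Tex15, 5521 of 17346, with 59 lower each time. With 1 library left out, 0 to 1 were called in c-Kit+ genotypes, 3 to 5 in controls and 2 to 5 in mutants, and 0 in Thy1+ genotypes and in the interaction. Calls over all genes ran from 3175 to 4144 in c-Kit+ genotypes, 3542 to 5647 in controls and 2341 to 5017 in mutants. They ran from 0 to 10 in Thy1+ genotypes and 0 to 1 in the interaction.

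Log2 fold changes turned positive with germ cell markers in Thy1+ genotypes (Sohlh1 0.092, Sohlh2 0.41, Dmrt1 0.29, Dmrtb1 0.049), in c-Kit+ genotypes (Sohlh1 0.15, Sohlh2 0.14, Dmrt1 0.33), between control populations (Sohlh1 0.16, Dmrt1 0.11) and between mutant populations (Sohlh1 0.10, Sohlh2 0.051, Dmrt1 0.075). Without Tex15 they did so in Thy1+ (Sohlh2 0.30, Dmrt1 0.18) and c-Kit+ genotypes (Dmrt1 0.16), in controls (Sohlh1 0.096, Dmrt1 0.048) and in mutants (Sohlh1 0.10, Sohlh2 0.050, Dmrt1 0.074). The scale itself moved the median gene in each case. Interaction values near 0 turned negative with DESeq2 and with its size factors (Kit −0.056, Sohlh1 −0.023, Dmrt1 −0.038), without Tex15 (Kit −0.053, Sohlh1 −0.0044, Dmrt1 −0.027) and with no filter (Kit −0.018). The median gene of the interaction shifted by −0.079 with DESeq2 size factors and by −0.090 without Tex15. What turned the values was not tested further. Leaving out 1 library, Thy1+ genotype values ran from −0.17 to 0.45 for Kit, −0.26 to 0.26 for Sohlh2 and −0.33 to 0.025 for Dmrt1, and interaction values from −0.36 to 0.32 for Kit, −0.20 to 0.31 for Sohlh1, −0.17 to 0.24 for Dmrt1 and −0.29 to 0.20 for Dmrtb1. All 20 group levels moved by less than 1 SD under total count or DESeq2 size factors.

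With the replicate number as a block, 0 of the 5 genes were called in either genotype comparison and 3 in controls, as without it. Calls over all genes with the block were 1414 in Thy1+ genotypes, 3992 in c-Kit+ genotypes and 5231 in controls. In mutants, where the numbers paired the libraries in 1 of 3 pairs, the block gave 4 of 5 genes called. Beside them stood 3888 of all 17346 genes (22.4%, with 6.84% lower). In the interaction (10 of 18 pairs) it gave 446 genes called in place of 0, and 0 of the 5. In Thy1+ genotypes the exact test called 294 genes and DESeq2 378, in place of 0.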
